A study of Mus musculus with 4 samples.

Results

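The genes described here encode the nuclear subunits of the oxidative phosphorylation system. They were taken from the array's platform annotation by symbol: every gene whose symbol begins with Nduf, Cox4 to Cox8, Uqcr, Sdha to Sdhd, Atp5 or Cycs. The rule used no measured value. It found 74 of the 8220 genes with a named probe set: 29 of complex I, 4 of complex II, 7 of complex III, 15 of complex IV, 14 of complex V, the gene of cytochrome c, and 4 assembly factors whose symbols fit the same pattern. Where a gene had several probe sets, which was so for 16 of the 74, the one brightest on average was read. Complex IV, cytochrome oxidase, is counted here with Ndufa4l2, a paralogue of a subunit that belongs to that complex despite its name.

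Mouse bone marrow cells were followed as they became dendritic cells, which present antigen to T cells. Total RNA of 4 samples was hybridised to 1 Affymetrix expression array each. The samples were amplified dendritic cell progenitors, cells after 7 days of differentiation, cells after 10 days, and cells differentiated for 10 days with tumour necrosis factor (TNF), a cytokine that matures dendritic cells, given for 16 hours. All were grown in culture from bone marrow progenitors; the labels give no mouse strain, genotype, age or number of cultures behind an array. With 1 array per group there is no spread between replicates and no test, so each difference below is one between 2 arrays. A level is the deposited linear intensity after scaling each array to a common 75th percentile, in arbitrary units. It can be negative, as some deposited values are, and how these arose is not given.

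Oxidative phosphorylation couples the oxidation of NADH and succinate to ATP synthesis in the inner mitochondrial membrane. Complexes I and II pass electrons to ubiquinone, complex III passes them to the small soluble carrier cytochrome c, and complex IV hands them to oxygen; complexes I, III and IV pump protons, and complex V lets the protons return while it makes ATP. Each complex except II also holds subunits made from mitochondrial DNA, which the rule does not take in. Resting dendritic cells are known to rely on this pathway, and activated dendritic cells are known for increased glycolysis.

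Values that bear on all results are these. Between 22.8% and 24.3% of the 12654 probe sets lay below 0 on an array. Levels under 105 units, the 40th percentile of all scaled values, were set to 105 before log2 ratios were taken, and a fold of a single gene was taken against 428 units, the 60th percentile, where its dimmer array lay under that level ("at least"). The 2 brightest probe sets of 1 gene disagreed by an SD on the log2 scale of 0.83 in 672 genes for day 7 against progenitor, of 0.85 in 665 for day 10 against day 7, of 0.74 in 674 for TNF against day 10 and of 1.08 in 635 for day 10 against progenitor. The 9 bacterial spike controls, which carry no cell RNA, had a median log2 ratio of -0.34 for day 7 against progenitor, 1.5 for day 10 against day 7 and -0.50 for TNF against day 10. The ratio of the 3′ to the 5′ probe set of Gapdh lay between 0.798 and 0.944 on the 4 arrays. The summed level of 11 dendritic cell markers was 5522 units on the progenitor array, then 86788, 348914 and 359657 at day 7, day 10 and with TNF. The sum of 5 early granulocyte markers, such as Mpo, was 101438, 17193, 2026 and 629 units in the same order, that of 7 late granulocyte markers 116303, 105903, 141730 and 16881, that of 9 macrophage markers 10344, 62171, 136082 and 94164, and that of 6 proliferation genes 46133, 18392, 5732 and 4673. All 5 early granulocyte markers lay above 428 units on the array labelled progenitor and 1 did with TNF. These sums follow their brightest markers. C1qa, C1qb and C1qc, 3 of the 9 macrophage markers, went from 487, 359 and 1679 units in the progenitor to -33, 5 and -230 at day 7. Of the dendritic cell markers, Flt3 went from 1972 units to 805 at day 7, and Zbtb46 stayed under 105 units. Of the 7 late granulocyte markers, 5 were higher at day 10 than at day 7, most of all S100a8, and Camp and Ltf were lower. Of the 5, Lcn2 and Mmp9 barely differed, with log2 ratios of 0.01 and 0.04. The median of the 7 was 0.04 and became -0.49 after quantile normalization, so a direction for them depends on the scaling. The samples were bulk RNA, so fewer cells of a type and less RNA per cell cannot be told apart, and the part of these cell types in the results below was not tested.

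Most members were well measured. Of the 74, 54 lay above 428 units on all 4 arrays, 6 on some of them and 14 on none. All 4 subunits of complex II and all 7 of complex III were above 428 units on every array, as were 23 of 29 for complex I, 8 of 15 for complex IV and 9 of 14 for complex V. Ndufa12, Cox8a and Cox8b never reached 105 units, which says nothing about their transcripts beyond these probe sets. For 20 members the probe set read is marked by its name as shared or less specific, so a transcript of similar sequence may contribute. Another 8 probe sets carry several symbols of which at least 1 fits the rule; 7 of them were above 428 units on every array, and they were not used here. Several subunits were not measured through a probe set with a single symbol, among them Ndufs7 and Ndufs8 of complex I, Uqcrfs1 of complex III, Cox5a of complex IV and Atp5b of complex V.

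**Figure D1:**
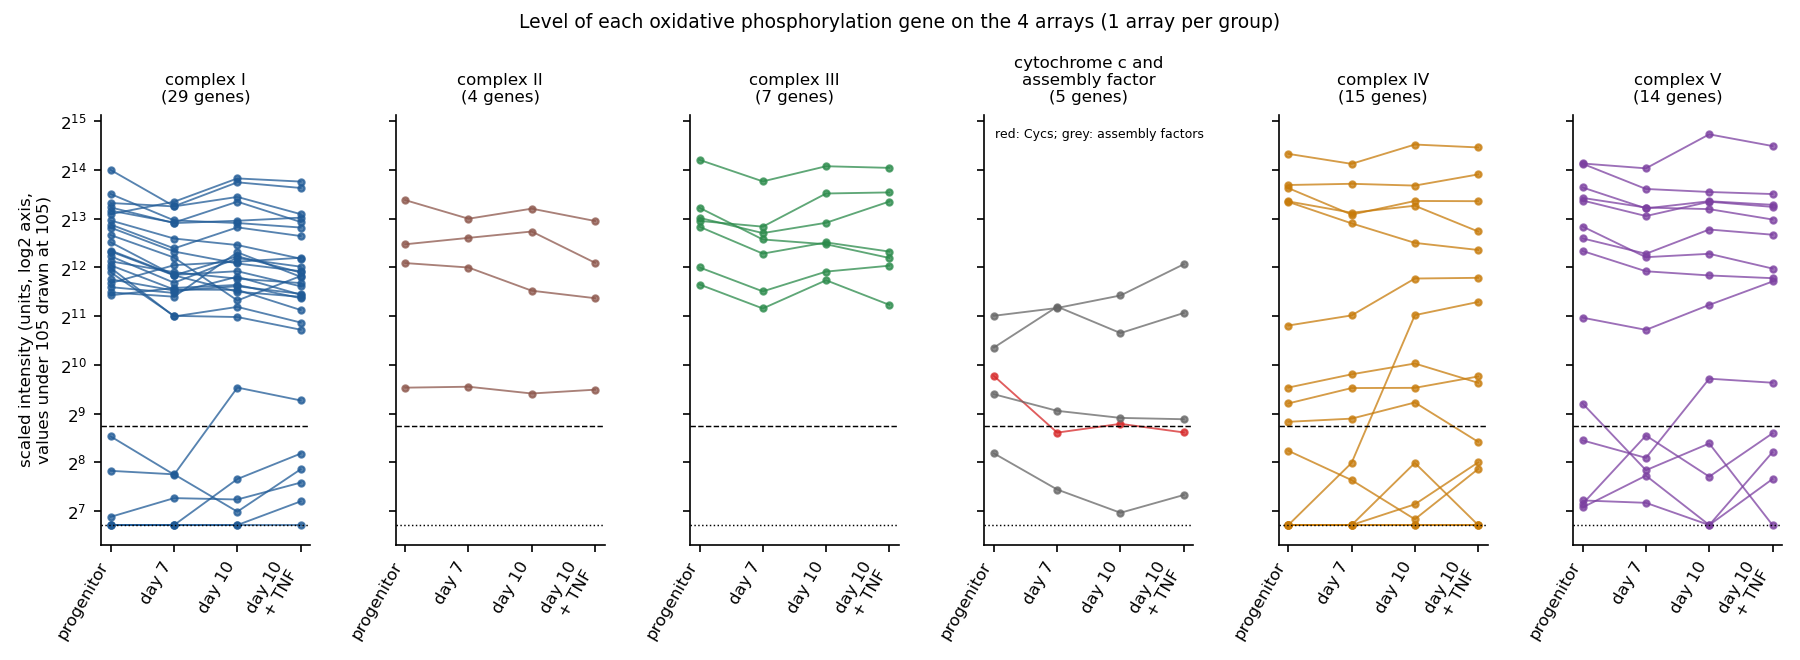
Scaled intensity (units, log2 axis) of each of the 74 genes on the 4 arrays, 1 line per gene, in panels by complex; the dashed line is 428 units and the dotted line 105 units, at which lower values are drawn. Of the 59 genes with a mean above 428 units, 51 stay under 2-fold between arrays, and Cox6a2 in the complex IV panel climbs from under 105 units to 2508.

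The members varied little over the 4 arrays compared with other genes. Among the 59 members with a mean above 428 units, the highest array exceeded the lowest by a median of 1.53-fold, with values under 428 units raised to that level, and 51 of 59 (86.4%) stayed under 2-fold. Over all 4091 genes above the same mean the median was 2-fold and 49.7% stayed under 2-fold. The contrast was as wide among bright probe sets: of members with a mean of 4096 to 16384 units, 27 of 29 (93.1%) stayed under 2-fold, against 344 of 702 (49.0%) of the other genes in that range. The spread ran from 1.10-fold for Sdha, the flavoprotein of succinate dehydrogenase, to at least 5.86-fold for Cox6a2, a cytochrome oxidase subunit isoform best known from heart and skeletal muscle. By complex the median spread was 1.64-fold for complex I, 1.45-fold for II, 1.49-fold for III, 1.46-fold for IV and 1.51-fold for V. It was 1.80-fold for 15 genes of the tricarboxylic acid (TCA) cycle and pyruvate entry, 1.79-fold for 49 of the mitochondrial ribosome, 2.12-fold for 32 of the proteasome and 3.22-fold for 11 of glycolysis. Other mitochondrial lists were close to the members, at 1.55-fold for 8 assembly factors outside the symbol rule and 1.57-fold for 5 genes of mitochondrial DNA expression and its regulators, with 1.84-fold for 7 of quinone and electron entry and 1.93-fold for 4 carriers.

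The progenitor array was most often the highest for these genes, and day 7 seldom was. The progenitor array was the highest for 32 of the 59 members (54.2%, against 36.2% of all genes above the same mean), day 10 for 15, day 10 with TNF for 10 and day 7 for 2 (3.39%, against 13.8%). The lowest array was TNF for 25 members (42.4%, against 29%) and day 7 for 23 (39.0%, against 17.5%). Complex I followed this order, with the progenitor array highest for 16 of 24 and TNF lowest for 13. In complex III day 7 was the lowest array for 6 of 7 genes, and in complex V for 6 of 10. Complex IV departed from it, with the progenitor array lowest for 4 of 10 genes and highest for 3. Those 4 were Cox4i1 and the isoforms of restricted tissues Cox6a2, Cox6b2 and Cox8c. Through its other probe set Cox4i1 was lowest at day 7.

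The first comparison, day 7 against progenitor, asks how the genes stood once differentiation was under way. Members were mostly slightly lower at day 7. Of 67 members above 105 units on either array or both, 51 (76.1%) had a ratio below 0, and the median log2 ratio was -0.32; over all 5957 such genes 52.0% were below 0 and the median was -0.04. Few differences reached 2-fold: 2 members, Cox6a2 and Atp5g1, were higher by 2-fold or more and 2, Cycs and Atp5k, were lower by as much, where 13.4% of all genes were higher and 11.9% lower. Among members with a mean of 4096 to 16384 units, 25 of 29 (86.2%) were lower and the median log2 ratio was -0.38 (quartiles -0.52 and -0.23), while 308 of 702 other genes in that range (43.9%) were lower with a median of 0.11. Quantile normalization left the medians at -0.42 and 0.15. These medians are smaller than the probe-set disagreement of 0.83 for a single gene.

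Complex I, which oxidises NADH, was lower at day 7 for 22 of 26 genes above 105 units, with a median log2 ratio of -0.42. All 9 Ndufb genes, accessory subunits of the membrane arm, had ratios below 0 through the probe sets read, between -0.74 and -0.25. Ndufb2 was read through a probe set of the shared type, at -0.49, and another of that type gave -0.50. Its probe set not of that type was dim, at 252 and 313 units, and gave 0.31. The 5 measured Ndufs and Ndufv genes above 105 units, most of them subunits of the arm that carries the flavin and iron-sulfur clusters, were lower as well, with a median of -0.32. Ndufs1, the largest iron-sulfur subunit, was at 4068 units in the progenitor, 2041 at day 7, 2338 at day 10 and 1872 with TNF. The progenitor array stood apart from the other 3, and the day 7 level was 1.99-fold lower. Ndufv1, which binds NADH and the flavin, was at 9620, 7702, 7961 and 8320 units, and Ndufv2, its iron-sulfur partner, at 11635, 8003, 7708 and 7229. Each was again highest in the progenitor, by 1.25-fold and 1.45-fold over day 7. Ndufs3, a core subunit near the quinone site, varied least of these, at 3462, 2949, 3135 and 2815 units. Ndufab1, the mitochondrial acyl carrier protein that also sits in complex I, was at 3820, 2058, 2024 and 1690 units, 1.86-fold lower at day 7 and lower still with TNF. The 3 Ndufa genes with ratios above 0 were Ndufa7, Ndufa8 and Ndufa13, at 0.25, 0.15 and 0.37. Ndufc2, a membrane-arm subunit, gave the highest ratio of the complex, 0.39, from 118 and 154 units, which are close to the floor.

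Complex II, succinate dehydrogenase, showed no common direction at day 7, with a median log2 ratio of -0.04 over 4 genes. Sdha was at 741 units in the progenitor, 751 at day 7, 682 at day 10 and 720 with TNF. Its 4 values lay within 1.10-fold. Sdhb, the iron-sulfur subunit, was at 5696, 6240, 6831 and 4379 units, so its highest array was day 10 and its lowest TNF. The membrane anchors differed from each other: Sdhc went from 4361 and 4094 units in the progenitor and at day 7 to 2943 and 2646 at day 10 without and with TNF. Sdhd was at 10680, 8194, 9455 and 7934 units, lowest with TNF and highest in the progenitor.

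All 7 genes of complex III, the cytochrome bc1 complex, were lower at day 7, with a median log2 ratio of -0.49. Uqcrc1, a core subunit, had the lowest ratio at -0.65; its levels were 9572 units in the progenitor, 6100 at day 7, 5698 at day 10 and 4689 with TNF, a range of 2.04-fold. Uqcrc2, the other core subunit, was at 4098, 2915, 3862 and 4201 units through a probe set of the shared type. The core pair thus parted after day 7, since Uqcrc2 was back within 1.06-fold of its progenitor level at day 10 and Uqcrc1 was 1.68-fold below its own. Uqcrh, the hinge protein that contacts cytochrome c1, had the ratio nearest 0, at -0.12.

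Cycs, which encodes cytochrome c, was the member with the clearest difference at day 7. It was at 875 units in the progenitor, 391 at day 7, 443 at day 10 and 392 with TNF. The progenitor level was at least 2.04-fold that of day 7, and the other 3 arrays lay close together near 428 units. The probe set gave a log2 ratio of -1.16, and of -1.18 after quantile normalization. Cycs was read from 1 probe set, so no other probe set bears on this value.

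Complex IV did not share the lower values at day 7: 5 of 11 genes had ratios below 0 and the median was 0.02. Its 7 widely expressed subunits above 105 units had a median of -0.23, with 5 below 0. Cox5b, a zinc-binding subunit, was at 12669 units in the progenitor and 8686 at day 7, 1.46-fold lower, and at 10548 and 10517 at day 10 without and with TNF. Cox4i1, a subunit that joins the complex early in its assembly, ran the other way, at 1794, 2071, 3500 and 3535 units. Its day 10 level was 1.95-fold that of the progenitor, through a probe set of the shared type. The other Cox4i1 probe set, not of that type, was dimmer, at 262, 210, 263 and 436 units, with log2 ratios of -0.32 at day 7 and 0.00 at day 10 against progenitor, so the probe sets disagree. The 4 isoforms of restricted tissues that were above 105 units had ratios above 0 at day 7 through the probe sets read, from 0.06 to 1.28. The lowest, Ndufa4l2, gave -1.10 through its other probe set. The highest, Cox6a2, came from 45 and 254 units, both under 428.

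Complex V, ATP synthase, was lower at day 7 for 12 of 14 genes, with a median of -0.32. Atp5a1, the alpha subunit of the catalytic head, was at 17904 units in the progenitor, 12513 at day 7, 11987 at day 10 and 11639 with TNF. The 3 later arrays lay close together, and the lowest of them was 1.54-fold below the progenitor. Atp5c1, the rotating gamma subunit, was at 10618, 8512, 10436 and 9697 units. The peripheral stalk genes Atp5pb, Atp5o and Atp5j were all lower at day 7, with a median log2 ratio of -0.42, and Atp5o, the subunit that gives oligomycin sensitivity, was at 7332, 4741, 4975 and 4033 units. The extremes of the complex came from dim probe sets. Atp5k, a small membrane subunit linked to dimers of the enzyme, was at 591, 229, 335 and 83 units, at least 1.38-fold lower at day 7 with a log2 ratio of -1.37. Atp5g1, 1 of 3 genes for the c ring through which protons pass, was at 142, 375, 209 and 387 units, a log2 ratio of 1.40 with every value under 428. Atp5g2, which encodes the same mature protein, was at 2005, 1686, 2405 and 3355 units through a probe set of the shared type. That probe set gave a log2 ratio of -0.25 at day 7. Its other probe set, not of that type and dim at 97 and 294 units, gave 1.49.

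The promoters of these genes are described next, and their part in the day 7 values was not tested. RefSeq promoters of the GRCm38.p6 assembly, from 250 bases before to 50 after a start, were found for 60 of the 74 members, 65 promoters in all. The letters GCGCATG on either strand, the left arm of the palindromic motif of NRF1, a factor known for driving nuclear genes of respiration, stood in 14 of the 65 (21.5%), against 1284 of all 32851 promoters (3.91%). A full palindrome counts once, since its arms overlap. The share was 6.78% of 59 mitochondrial ribosome promoters, 10.8% of 37 of the cytosolic ribosome, 8.82% of 34 of the proteasome and 5.0% of 20 of glycolysis. CCGGAAG, bound by Ets factors such as GABPA, stood in 18 (27.7%, against 8.86%), and AAGATGG, a YY1 motif, in 8 (12.3%, against 6.34%). Both were at least as frequent in the other large complexes: CCGGAAG stood in 32.2% of promoters of the mitochondrial ribosome, 32.4% of the cytosolic ribosome and 35.3% of the proteasome, and AAGATGG in 18.6%, 24.3% and 17.6%. Glycolysis had 0 of 20 for each. Windows of 30 bases from 6 promoters, 1 each from a gene of complex I, II, III, IV and V and Cycs, read along the gene's own strand with the letters of the NRF1 motif in capitals:
Ndufa6, chr15:82354355-82354384, minus strand: ccgcggtagagCATGCGCattgcagagccc
Sdhb, chr4:140961207-140961236, plus strand: agcccagtgggCATGCGCcctacgggccgc
Uqcr11, chr10:80406806-80406835, minus strand: tcgccttcacgCATGCGCtatacgtctgca
Cox5b, chr1:36691425-36691454, plus strand: gaggcagaactGCGCATGtgcggcgtctac
Atp5k, chr5:108434431-108434460, minus strand: ctttcactgcgGCGCATGCGCctttctggc
Cycs, chr6:50566610-50566639, minus strand: atgctagctcgCATGCGCgcgcacaaacct

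In Atp5k the arms overlap to form the whole palindrome, and in Ndufa6, Sdhb, Uqcr11 and Cycs the motif lies on the opposite strand. Members with these letters and members without them both stood lower at day 7: 12 of 14 with a median log2 ratio of -0.49, and 30 of 39 with a median of -0.32. The genes shown above spanned most of that range, from -1.37 for Atp5k and -1.16 for Cycs to 0.13 for Sdhb. The letters are a description of the window and not evidence of binding. Nrf1 itself was not measured through a probe set of its own. Gabpa was at 416, 557, 405 and 384 units from the progenitor to TNF, and Yy1 at 1598, 946, 886 and 1093. Esrra, a nuclear receptor that acts on mitochondrial genes, stayed between 1821 and 2062 units, and its coactivator Ppargc1a was between -55 and 90 units, under the floor on every array.

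Other gene lists of the mitochondrion were also lower at day 7. The median log2 ratio was -0.42 for 17 genes of the TCA cycle and pyruvate entry above 105 units, with 15 below 0. It was -0.47 for 10 genes of quinone synthesis and electron entry, with 9 below 0, and -0.54 for 56 genes of the mitochondrial ribosome, with 48 below 0. Lower values were not limited to mitochondrial genes, since the median was -0.52 for 36 proteasome genes, -0.37 for 27 cytosolic ribosome genes and -0.38 for 12 glycolysis genes. The mitochondrial ribosome had 10 of 56 genes at least 2-fold lower (17.9%) and oxidative phosphorylation 2 of 67 (2.99%), beside 11.9% of all genes. Mdh2, malate dehydrogenase of the TCA cycle, went from 14732 units to 7959, and Cs, citrate synthase, from 9821 to 5948.

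**Figure D2:**
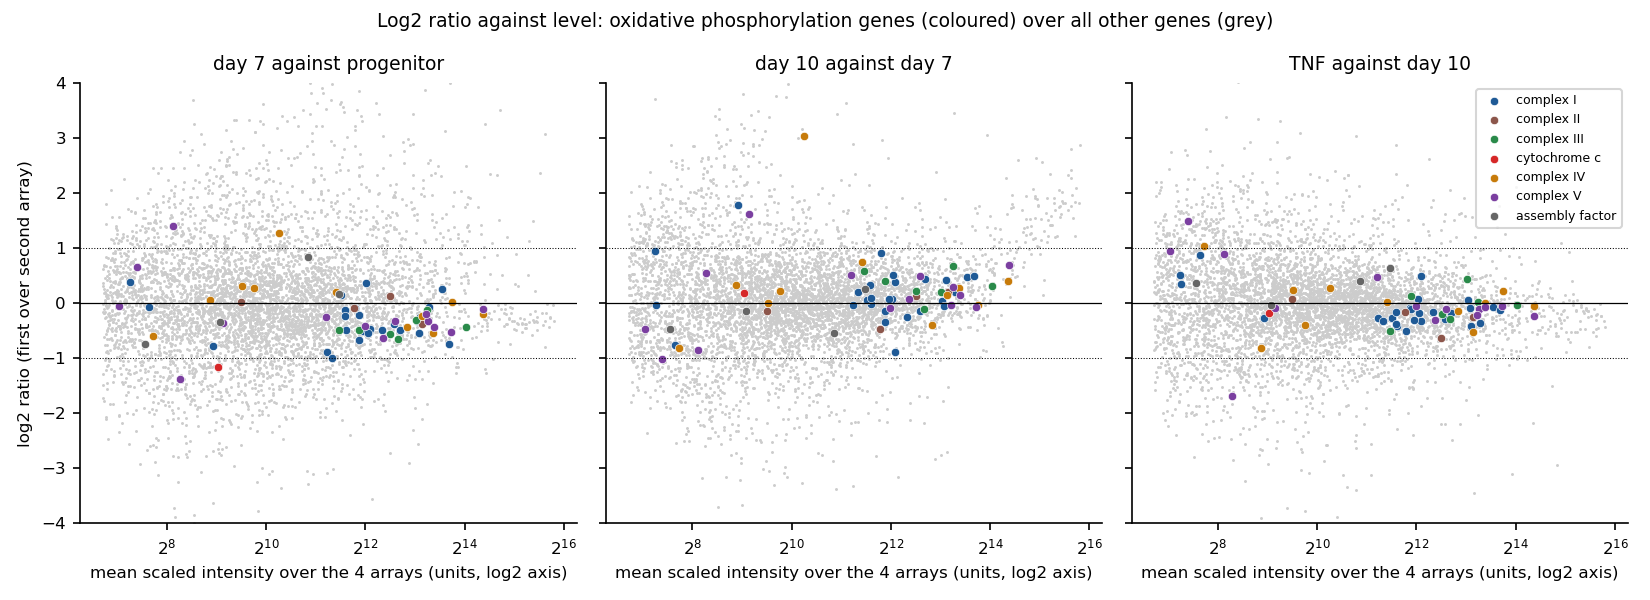
Log2 ratio (first array over second) against mean scaled intensity over the 4 arrays (units, log2 axis) for the 3 successive comparisons; coloured points are oxidative phosphorylation genes by complex and grey points the other genes, with dotted lines at 2-fold. The bright members lie in a narrow band just under 0 for day 7 against progenitor, with a median of -0.38, and Cox6a2 stands alone at 3.03 for day 10 against day 7.

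The second comparison, day 10 against day 7, covers the last stage of differentiation. It shares the day 7 array with the first, so a deviation of that array enters both with opposite sign. Of 70 members above 105 units, 45 were higher at day 10 and 25 lower, with a median log2 ratio of 0.16 against 0.06 over all genes. Bright probe sets as a whole and the spikes stood higher on the day 10 array, and after quantile normalization the median of the members was -0.05. In the range of 4096 to 16384 units the members and the other genes had the same median, 0.15 as scaled, and -0.06 and -0.07 after quantile normalization. By complex the medians were 0.08 for I, -0.00 for II, 0.31 for III, 0.28 for IV and 0.11 for V, and quantile normalization changed them to -0.01, -0.08, 0.09, 0.03 and -0.17. A direction for the complexes between these arrays therefore depends on the scaling. Past 2-fold, 4 members were higher and 1 was lower, where 11.2% of all genes were higher and 8.44% lower.

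Cox6a2 had the widest difference of any member. It was at 45 units in the progenitor, 254 at day 7, 2079 at day 10 and 2508 with TNF. Both day 10 arrays lay far above the earlier pair, at least 4.86-fold above day 7, with a log2 ratio of 3.03 at the floor of 105 units. Cox6a1, the widely expressed isoform of the same subunit, was at 20618, 17884, 23540 and 22591 units through a probe set of the shared type. As scaled it was 1.32-fold higher at day 10 than at day 7. Its log2 ratio of 0.40 became -0.66 after quantile normalization, so its direction depends on the scaling. Cox6a2 is best known from heart and skeletal muscle, though it need not be confined to them. Muscle markers were read on the same arrays. Of these, 5 of 6 were measured, their summed level lay between 1 and 544 units, and 0 of them exceeded 428 units on any array. Of the brown fat markers, Ucp1 was at 1467, 1131, 768 and 2477 units and Cidea at 1296, -69, 395 and 339. The part of either tissue's transcripts in the Cox6a2 value was not tested, nor was expression of Cox6a2 by the dendritic cells themselves. Cox6a2 was read from a single probe set that is not of the shared type.

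The other isoforms of restricted tissues differed little. Cox8c, a testis isoform, was at 592, 737, 739 and 869 units, and Cox6b2, also of testis, at 742, 896, 1045 and 794 through a shared probe set. Each stayed within 1.47-fold. The other probe sets of Cox6b2, also of the shared type, did not exceed 137 units on any array. Ndufa4l2, the hypoxia-induced paralogue, was at 456, 477, 600 and 343 units, and its other probe set ran from 406 units in the progenitor to -184 with TNF, so the probe sets disagree in direction. Cox7a1, a muscle isoform, was at 33, -37, 254 and 34 units, which gives ratios of 1.28 at day 10 and -1.28 with TNF from levels under 428 units. Cox8b, another muscle isoform, had 2 units as its highest level. Cox4i2 and Cox7b2 had no probe set with a single symbol here.

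**Figure D3:**
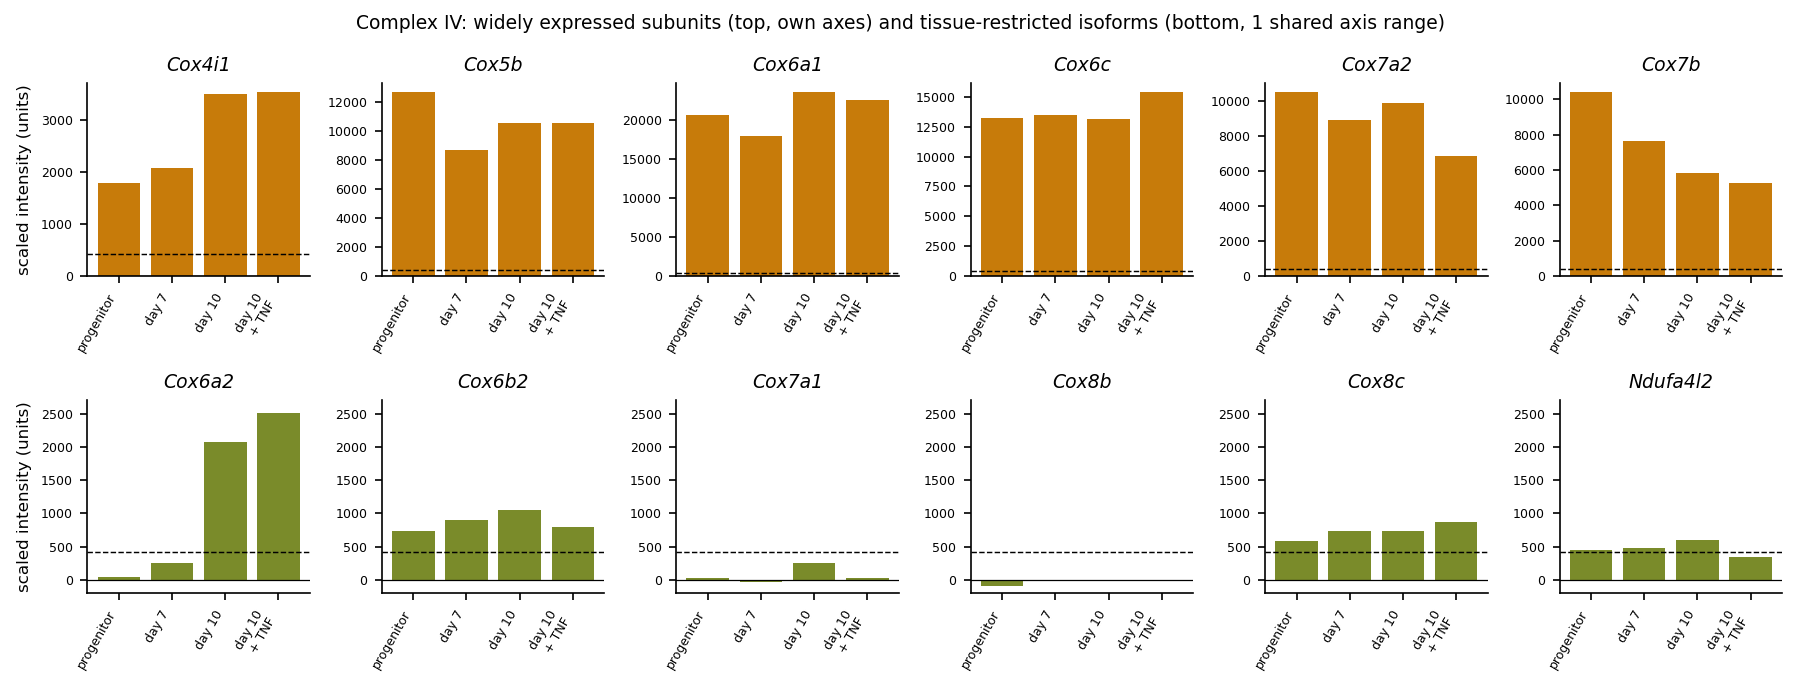
Scaled intensity (units, linear axes from 0, or from below 0 where values are negative) of 6 widely expressed complex IV genes (top row, each on its own axis) and 6 isoforms of restricted tissues (bottom row, shared axis) on the 4 arrays, 1 bar per array; the dashed line is 428 units. Cox6a2 reaches 2079 and 2508 units at day 10 without and with TNF, while the other isoforms stay at or under 1045.

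The remaining members at least 2-fold higher at day 10 were dim at day 7. Ndufa6, an accessory subunit of complex I, was at 370, 215, 742 and 618 units, at least 1.73-fold higher at day 10, through a probe set of the shared type. Atp5pb, the b subunit of the ATP synthase stalk, was at 350, 273, 842 and 795 units, at least 1.97-fold higher. In both, the day 10 pair lay above the earlier pair of arrays. Among brighter members, Ndufv3, an accessory subunit of the NADH-oxidising arm, was at 2873, 2703, 5081 and 3587 units, 1.88-fold higher at day 10 than at day 7. Uqcrh was at 7944, 7320, 11732 and 11914 units, 1.60-fold higher. Against these, Ndufb3, a membrane-arm subunit, went from 6490 and 4716 units to 2561, a level 1.84-fold under day 7 and 2.53-fold under the progenitor, and was at 3625 with TNF. Cox7b was at 10412, 7672, 5811 and 5253 units, lower on each later array. The 1 member called lower was Atp5d, the delta subunit of the ATP synthase head, at 135, 212, 29 and 296 units. Its log2 ratio of -1.02 was 1.49 and 1.15 through its other probe sets above the floor, so no direction can be given for it.

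Glycolysis genes stood much higher at day 10 than at day 7, which the respiratory genes did not. The median log2 ratio of 12 glycolysis genes was 1.44, 1.29 after quantile normalization. At least 2-fold higher were 9 of the 12, beside 11.2% of all genes, and 7 after quantile normalization. Day 7 was the lowest array for 8 of the 11 glycolysis genes with a mean above 428 units. For day 10 against progenitor the glycolysis median was 0.81, and 0.24 after quantile normalization, so its size depends on the scaling. Slc2a1, a glucose transporter, was at 840, 872, 4416 and 3760 units, and Pdk1, the kinase that restrains pyruvate entry into the TCA cycle, at 1718, 756, 2941 and 1898. The TCA cycle and pyruvate list had a median of -0.16 and the mitochondrial ribosome one of 0.03. The cytosolic ribosome, at 1.36, went to 0.20 after quantile normalization. Slc25a4, which exchanges ADP for ATP across the inner membrane, was at 4607, 5014, 7913 and 9858 units, and its relative Slc25a5 at 11555, 9089, 12581 and 15614; both were highest with TNF.

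**Figure D4:**
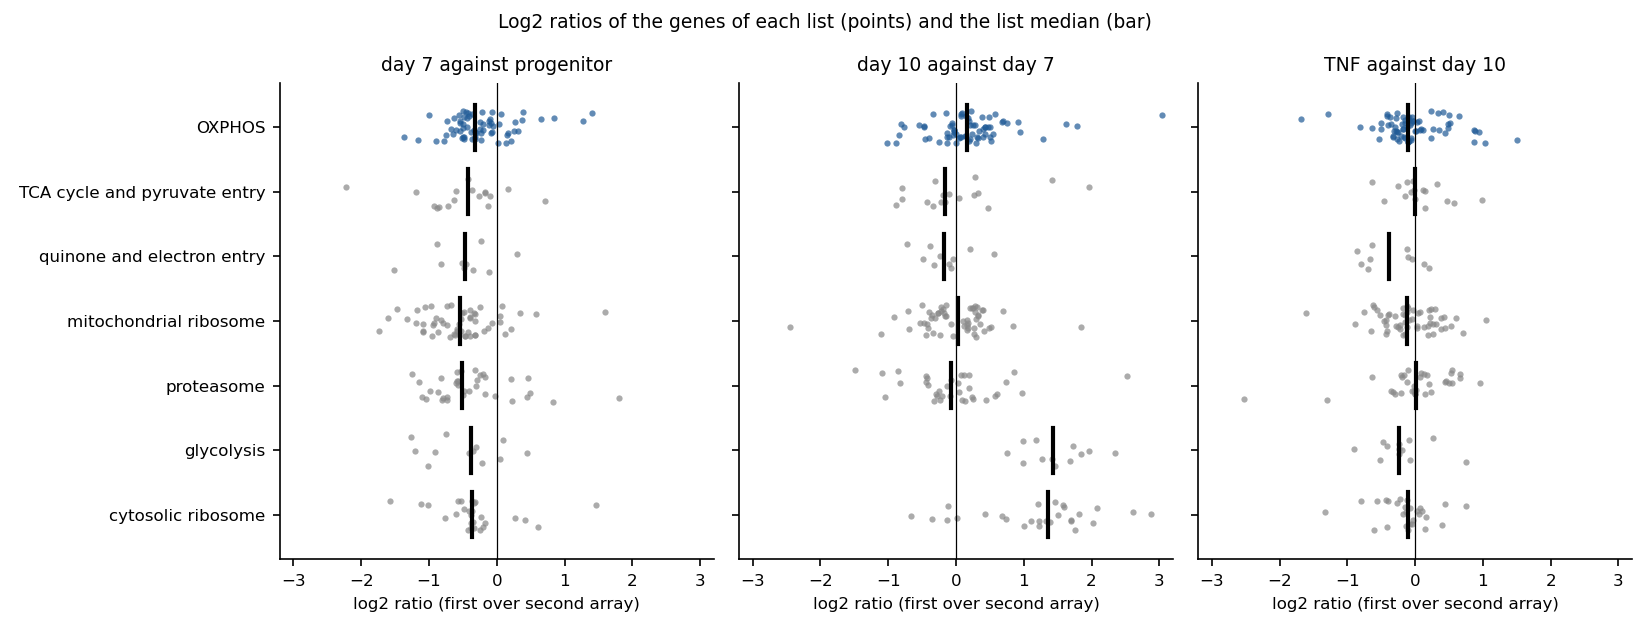
Log2 ratio (first array over second) of each gene above 105 units in 7 gene lists for the 3 successive comparisons; each point is a gene and the bar is the list median, with OXPHOS standing for the 74 oxidative phosphorylation genes. Every list has a median below 0 for day 7 against progenitor, and for day 10 against day 7 glycolysis lies at 1.44 and oxidative phosphorylation at 0.16.

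The third comparison, TNF against day 10, asks what accompanied maturation by the cytokine. Differences were small. Of 71 members above 105 units, 47 (66.2%) were lower with TNF, against 52.9% of all genes, and the median log2 ratio was -0.10 against -0.04. Past 2-fold, 2 members were higher and 2 lower, beside 8.84% and 8.76% of all genes. Complex I was lower for 21 of 28 genes with a median of -0.17, and 8 of 9 Ndufb genes were among them. Complex II was at -0.20, III at -0.03, IV at -0.00 and V at -0.08. In the range of 4096 to 16384 units 23 of 29 members (79.3%) were lower with a median of -0.15, against 60.1% and -0.10 for the other genes. After quantile normalization these medians were -0.08 and -0.07. The summed level of the late granulocyte markers differed far more between the same arrays, at 141730 and 16881 units.

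Single members differed in both directions with TNF. Sdhb was 1.56-fold lower than at day 10, the lowest ratio of complex II at -0.64, and Cox7a2 stood at 9856 units without TNF and at 6834 with it, 1.44-fold lower. Uqcr11 and Uqcr10, small subunits of complex III, parted: Uqcr11 was at 3214, 2286, 3414 and 2406 units and Uqcr10 at 8296, 6678, 7735 and 10465. Atp5g2 was 1.39-fold higher with TNF, although its other probe set gave a log2 ratio of -0.53 from levels under 428 units. Atpif1, the inhibitor of ATP synthase whose symbol is outside the rule, was at 11430, 9639, 10206 and 14513 units, 1.42-fold higher with TNF than at day 10. The 4 members past 2-fold, Atp5d and Cox6b1 higher and Atp5k and Cox7a1 lower, were all under 428 units on both arrays, so no fold is given. Cox6b1 was at 302, 199, 114 and 233 units. Ndufa10 gave the highest ratio of complex I, 0.87, from 127 and 232 units.

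The 4 assembly factors did not share a direction. Sdhaf1, which aids insertion of the iron-sulfur clusters of Sdhb, was at 2060, 2302, 2750 and 4288 units. It was 1.56-fold higher with TNF while Sdhb itself was lower, and both were read through probe sets of the shared type. Sdhaf2, which helps attach the flavin to Sdha, was at 1311, 2346, 1611 and 2144 units, highest at day 7. Ndufaf1, a complex I assembly factor, was at 675, 533, 482 and 473 units, and Ndufaf4 at 291, 174, 125 and 161. Both were highest in the progenitor. Of 25 further assembly factors outside the symbol rule, 10 were measured, and their median log2 ratio was -0.48 at day 7 against progenitor, 0.45 at day 10 against day 7 and -0.18 with TNF.

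Taken from end to end, day 10 against progenitor, 42 of 70 members were lower (60%, against 47.4% of all genes), and the median log2 ratio was -0.10 against 0.07. The count past 2-fold was 4 higher and 4 lower, beside 20.4% and 16.8% of all genes. The 4 higher were Cox6a2, Atp5pb, Cox7a1 and Ndufa6. The 4 lower were Ndufb3, Ndufa9, Cox6b1 and Ndufaf4. Ndufa9, an accessory subunit near the quinone site, was at 5852, 3663, 2899 and 2700 units, 2.02-fold lower at day 10 and lower on each later array. Quantile normalization moved the median to -0.36 and the counts to 3 higher and 7 lower, beside 17.8% and 18.8% of all genes so normalized. Among members of 4096 to 16384 units 75.9% were lower with a median of -0.18, against 39.9% and 0.28 for the other 702 genes in that range. Complexes I, II, III and V had medians of -0.14, -0.15, -0.10 and -0.26, and complex IV one of 0.32. In complex IV the 8 widely expressed genes ran from -1.41 to 0.96 with a median of -0.05. The 5 isoforms of restricted tissues, of which Cox7a1 and Cox6a2 lay under 428 units in the progenitor, ran from 0.32 to 4.31 with a median of 0.49, so the ranges overlap; the other probe set of Ndufa4l2 gave -1.95. The mitochondrial ribosome stood lower than the respiratory genes, at -0.63 with 17 of 56 genes at least 2-fold lower, and so did the TCA list, at -0.57, and quinone and electron entry, at -0.50 with 10 of 10 genes below 0. Proliferation genes and early granulocyte markers, given above, were lower over the same span, and their part in these values was not tested.

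Most members past 2-fold were counted through dim probe sets. With every level under 428 units raised to 428 in place of 105, 0 members were higher and 1, Cycs, was lower for day 7 against progenitor, where 10.5% of all genes were higher and 9.72% lower. For day 10 against day 7, 1 member, Cox6a2, was higher and 0 were lower, beside 7.26% and 4.65% of all genes. With TNF 0 were higher and 0 lower, beside 4.71% and 5.15%. For day 10 against progenitor Cox6a2 was higher and Ndufb3 and Ndufa9 were lower, beside 17.3% and 14.8%. The median of the members hardly moved with this floor, at -0.32, 0.19, -0.12 and -0.10 for the 4 comparisons in that order.

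The counts at other fold limits were these. At 1.5-fold, 4 members were higher and 11 lower for day 7 against progenitor, beside 22.7% and 23.3% of all genes. For day 10 against day 7 the counts were 9 and 5, beside 22.9% and 17.9%, for TNF against day 10 they were 7 and 4, beside 17.5% and 19.2%, and for day 10 against progenitor 9 and 13, beside 31.5% and 27.4%. At 3-fold, 0 members were higher and 0 lower at day 7, beside 6.55% and 4.43% of all genes. Cox6a2, Ndufa6 and Atp5pb made 3 higher and 0 were lower for day 10 against day 7, beside 4.70% and 3.18%. With TNF 0 were higher and Atp5k alone was lower, beside 2.88% for each direction, and for day 10 against progenitor Cox6a2 alone was higher and 0 were lower, beside 11.5% and 7.97%.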

How the data were processed

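Total RNA of 4 mouse samples, 1 per group, was measured on Affymetrix arrays. The deposited values are linear intensities per probe set, some of them negative. The sources used here do not give the software, how negative values arose, the scaling or the detection calls. Of 12654 probe sets, 10298 have 1 symbol in the platform annotation, 363 several and 1993 none; those with 1 symbol were used, with 10279 symbols updated by Entrez number. Arrays were scaled to a common 75th percentile (factors 0.962 to 1.05), floored at 105 units and converted to log2. List medians and counts cover genes above 105 units on either array or both. No test was run; the number of arrays limits the precision. Scripts used Python 3.11.15, numpy 2.4.6, pandas 2.3.3 and matplotlib 3.10.9, and were tested on simulated data.

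The members, lists and rules were chosen with earlier results of these arrays known. Genes named are the highest and lowest ratio of each complex per comparison, catalytic and defining subunits, and isoforms of restricted tissues. Also named are members whose probe sets disagree in sign by at least 1 log2 unit and members with at least 2-fold between arrays. Values of such members not given above are these. By probe set, Atp5l gave -0.10 and 1.09 for day 7 against progenitor, and 0.70 and -0.32 for day 10 against day 7. For TNF against day 10, Ndufa1 gave 0.52 and -0.67, and Ndufa3 -0.35 and 1.01. Ndufb2 ran from -0.50 to 1.27 for day 10 against progenitor. Cox7a2l was at -87, 55, 141 and 256 units from the progenitor to TNF. Subunit groups, other members and genes of other lists were named after their values were seen. Alternatives were the scaling, the floor, the fold, the probe set, the assembly factors and the symbols.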

Additional observations from a re-analysis of the deposited data

How the results depend on the processing

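Medians of the lists and complexes were compared with a tolerance of 0.2 on the log2 scale. Without rescaling, the median of complex V for day 10 against day 7 was -0.02 in place of 0.11 and that of complex I -0.05 in place of 0.08, and 2 members in place of 1 were lower there. Quantile normalization gave day 10 against day 7 medians of -0.05 for the members, -0.01 for complex I, 0.09 for complex III, 0.03 for complex IV and -0.17 for complex V. For day 10 against progenitor it gave -0.36 for the members, with 7 lower in place of 4, and -0.31 for complex III and -0.53 for complex V. The cause was not tested. With the floor at the 60th percentile fewer genes pass: 0 higher and 1 lower for day 7 against progenitor, 1 and 0 for day 10 against day 7, 0 and 0 for TNF against day 10, and 1 and 2 for day 10 against progenitor. At 1.5-fold the counts in that order were 4 and 11, 9 and 5, 7 and 4, and 9 and 13. At 3-fold they were 0 and 0 for day 7 against progenitor, 0 lower for day 10 against day 7, 0 and 1 for TNF, and 1 and 0 for day 10 against progenitor. The median over probe sets left 0 lower for day 10 against day 7 and 1 higher with TNF, and leaving out shared probe sets left 1 higher with TNF. Atp5d turned with the probe set, from -1.02 to 1.49 and 1.15 for day 10 against day 7 and from 1.5 to -0.98 and -0.58 for TNF against day 10. Leaving out the assembly factors, or keeping the symbols as annotated, moved none of the medians and counts of the members beyond these limits. Of the single-gene values under the alternatives, 894 stayed within the probe-set disagreement of the main value, with either sign, and 37 moved beyond it. Another 4 turned from a main value of at least 2-fold, those of Atp5d. Smaller main values that changed sign were not counted as turned. No paired analysis was possible because each group has 1 array. Differences under about 2-fold in a single gene lie within the disagreement between probe sets.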
